A study of Rattus norvegicus with 8 samples.

Results

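The genes described here are the interferon response and MHC class I module of the rat saphenous artery, 38 genes chosen by gene symbol. Of these, 35 had a named row among the 19239 gene rows of the expression table. No row carried the names Ifnar2 or Eif2ak2, and the row of Nlrc5 was left out because the platform annotation gives it to Cpne2 while its identifier leads to Nlrc5. Messenger RNA of male Wistar rats was measured on Affymetrix rat gene arrays; the saphenous artery is a muscular vessel of the leg. The 4 adult samples each held 2 arteries of 1 rat of 2 to 3 months, and the 4 young samples each held 4 arteries pooled from 2 rats of 10 to 12 days. Values are log2 expression as deposited, listed in the order of replicates 1 to 4, and a difference is the adult mean minus the young mean ± its standard error from limma, with n = 4 arrays for each age. A gene was called different when its Benjamini-Hochberg adjusted p over all 19239 rows was below 0.01.

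Interferons are secreted signals of antiviral defence. Type I interferons bind the Ifnar1 and Ifnar2 receptor and interferon gamma binds Ifngr1 and Ifngr2, and in both cases Janus kinases phosphorylate STAT proteins, which enter the nucleus and switch on interferon-stimulated genes. These genes encode sensors of viral RNA, proteins that block steps of viral replication, GTPases that attack vacuoles holding microbes, and the machinery that loads peptides onto MHC class I molecules for display to cytotoxic T cells. A low basal level of this programme is kept by most tissues in the absence of infection.

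Adult arteries had higher expression of 7 members and lower expression of 2 members than young arteries. The higher ones were the tethering factor Bst2, the GTPases Ifi47, Irgm and Igtp, the transcription factor Irf8, the peptide transporter subunit Tap2 and the RNA sensor Dhx58, and the lower ones were the receptor subunit Ifnar1 and the transporter subunit Tap1. These 9 genes are 25.7% of the measured members, beside 32.7% of all rows called (16.7% higher and 16% lower). With 35 members the shares are near each other, and the gap is not read as a result about the members. Most differences were small. Ifi47 had the largest difference among the called members, 0.52 ± 0.0714 (1.44-fold). No member reached a fold of 1.5 in the deposited values, and 7.42% of all rows were called with at least that fold. Folds of dim genes are compressed in these values. After subtraction of the lowest intensity the fold was 2.4 for Ifi47 and 1.68 for Bst2. The median difference over the 35 members was 0.077 and over all rows 0.0024, and 25 of the 35 differences were above 0. At an adjusted p below 0.05, 14 members were higher and 4 lower, and 45.5% of all rows were called. The 4 adult and 4 young values did not overlap in 13 members, 10 with the adult values on top, which is 37.1% of members against 46% of all rows (24.4% with the adult values on top and 21.5% below).

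One array, singled out after the values were seen, weighed heavily on these counts. Young replicate 2 held the highest of the 4 young values in 28 of the 35 members (80%), whereas it did so in 25.3% of all rows, and it held the lowest young value in 0 members. It lay more than 0.1 above the mean of the other 3 young arrays in 20 members (57.1%, against 7.51% of all rows). When it was left out, 16 members were called higher and 1 lower, 48.6% of the members against 28% of all rows (13.8% higher and 14.1% lower). The array was picked for its high values in these members, so leaving it out moved most differences towards adult by construction. The counts and adjusted p without it describe the weight of that array and are no separate support for an age difference. The genes gained were Irf7, Ddx58, Ifit3, Mx2, Oas1a, Usp18, Parp14, Gbp2 and B2m, the call of Tap1 was lost, and the other 8 calls remained. Without this array the age groups did not overlap in 26 members, 23 of them with the adult values on top (74.3% of members, against 50.9% of all rows, 27.1% with the adult values on top). Leaving out any of the other 7 arrays gave 5 to 7 higher and 1 to 3 lower members, with 25.7% to 29.9% of all rows called. The calls of Ifnar1, Irf8, Bst2, Ifi47, Irgm and Tap2 were made whichever array was left out, but 4 of these 6 depended on how the arrays were scaled. When each array was centred on its ribosomal protein rows, the calls of Bst2 and Ifi47 remained and the other 7 were lost (adjusted p = 0.0429 for Ifnar1, 0.0701 for Irf8, 0.0252 for Irgm and 0.12 for Tap2), while Jak1, Gbp2 and B2m were gained as higher and Ifitm3 as lower, in a fit that called 20.5% of all rows. The centring subtracts a single value from each array, so the differences of all rows moved up by the same amount. With this centring Irf8 differed by 0.22 instead of 0.15, Irgm by 0.25 instead of 0.19 and Tap2 by 0.19 instead of 0.13. Ifnar1 differed by -0.24 instead of -0.30.

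**Figure D1:**
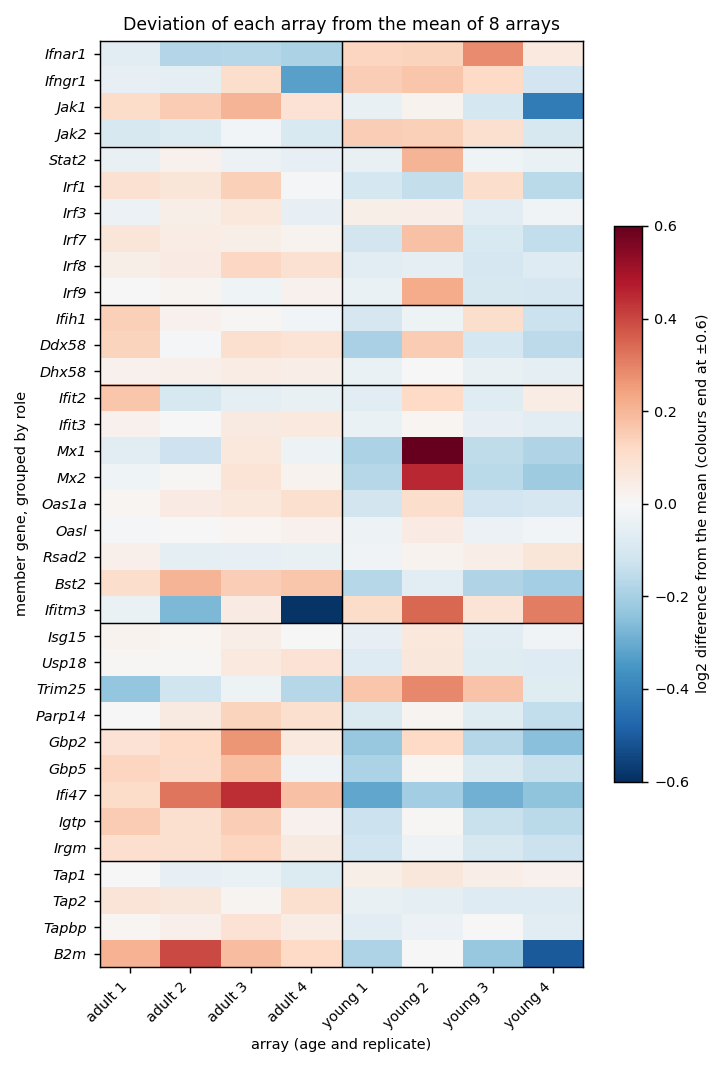
Heat map of 35 members (lines, grouped by role) on 8 arrays (columns): colour gives the log2 difference of each value from the mean of the 8 arrays of that gene. Young replicate 2 is red or pale where the other young arrays are blue for most of the antiviral effectors, with Mx1 and Mx2 darkest, and Ifi47, Bst2 and B2m are red on adult arrays.

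The stretches upstream of the transcription starts are shown because many members held known interferon response elements there. The interferon-stimulated response element (ISRE) binds IRF proteins, among them the complex that holds STAT2 and IRF9, and was searched by its core, GAAA and GAAA with any 2 bases between them; the gamma-activated site (GAS) is the element of the interferon gamma response and was searched as TTCNNNGAA. Both strands were read in RefSeq windows of the GRCr8 assembly, which reach from upstream of each start into the first bases after it and were held for 28 of the 35 members. The ISRE core was found in 16 of these 28 windows (57.1%) and in 3.92% of 33469 windows of all genes, and the GAS in 10 (35.7%) and in 8.87%. Capitals mark the letters of the motifs that were fixed in the search, an ISRE core on the opposite strand reads as a pair of TTTC blocks, and each sequence runs 5′ to 3′ on the strand of its gene.
B2m: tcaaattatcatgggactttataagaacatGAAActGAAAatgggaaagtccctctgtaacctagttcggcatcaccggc
Oas1a: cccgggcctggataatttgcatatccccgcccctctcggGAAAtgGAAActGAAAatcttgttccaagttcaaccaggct
Bst2: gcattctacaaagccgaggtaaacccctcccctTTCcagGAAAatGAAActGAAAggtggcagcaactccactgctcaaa
Igtp: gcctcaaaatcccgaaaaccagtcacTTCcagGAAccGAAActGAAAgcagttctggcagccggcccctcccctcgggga
Irgm: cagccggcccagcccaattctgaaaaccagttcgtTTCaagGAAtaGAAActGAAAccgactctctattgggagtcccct
Parp14: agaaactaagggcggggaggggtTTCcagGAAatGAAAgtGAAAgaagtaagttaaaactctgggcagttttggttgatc
Irf7: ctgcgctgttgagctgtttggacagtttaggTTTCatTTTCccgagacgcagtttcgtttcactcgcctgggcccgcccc
Gbp2: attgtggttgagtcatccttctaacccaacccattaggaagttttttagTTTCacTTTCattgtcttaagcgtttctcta
These lie at chr3:129549150-129549229 (plus strand), chr12:41330386-41330465 (plus strand), chr16:18255058-18255137 (minus strand), chr10:42874907-42874986 (plus strand), chr10:33742579-33742658 (minus strand), chr11:78408024-78408103 (plus strand), chr1:205800044-205800123 (minus strand) and chr2:234005647-234005726 (plus strand), in that order. In Oas1a and Bst2 a pair of cores overlap by 4 bases, and the GAS of Bst2 overlaps its first core. In Igtp, Irgm and Parp14 the GAS began 11 bases before the ISRE core, an arrangement noticed after the sequences were seen and held by 7 of the 33469 windows. Of the 16 members with an ISRE core 4 were called higher and 1 lower, and of the 12 whose window did not hold these letters 2 were called higher and 1 lower. Of all rows, 16.7% were called higher and 16% lower. Without young replicate 2, 10 of the 16 were called, all of them higher, and 2 of the 12 were higher and 1 lower. In that fit 13.8% of all rows were higher and 14.1% lower, and the array left out had been picked for its high values in the members. Young replicate 2 was the highest young array in 12 of the 16 members with the core and in 9 of the 12 without it. Mx1 and Stat2, which were high in that array, and the called Ifnar1 held neither motif in their windows. Ifi47, Irf1, Irf8 and Irf9 held a GAS only. A match of letters is a description of the window and was not tested against the expression values.

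Among the receptors and kinases, 1 of 4 measured members was called, too few genes to set against the 32.7% of all rows. Ifnar1, the signalling subunit of the type I interferon receptor, measured 8.75, 8.64, 8.65 and 8.63 in adult arteries and 8.95, 8.95, 9.10 and 8.88 in young arteries. All adult values lay below all young values, a difference of -0.30 ± 0.0517 (adjusted p = 0.00253) that was -0.31 ± 0.0599 without young replicate 2. The gamma receptor chain Ifngr1 measured 10.16, 10.15, 10.32 and 9.88 in adult arteries and 10.36, 10.38, 10.33 and 10.09 in young arteries, with overlapping groups and a difference of -0.16 ± 0.102 (adjusted p = 0.247). Jak1, the kinase used by both receptors, stood at 10.47 to 10.58 in adult and 9.96 to 10.40 in young arteries and differed by 0.27 ± 0.0928 (adjusted p = 0.0461). For Jak2, the second kinase of the gamma receptor, the ranges were 7.92 to 7.997 and 7.92 to 8.16 and the difference -0.14 ± 0.0548 (adjusted p = 0.0675). Young replicate 4 was the lowest young array for all 4 genes, and the groups of Jak1 did not overlap although the call was not made.

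The transcription factors held 1 called gene of 6, beside 32.7% of all rows. Irf8, best known from myeloid cells, measured 7.23, 7.24, 7.31 and 7.28 in adult arteries and 7.12, 7.13, 7.09 and 7.12 in young arteries. Its groups did not overlap, with a difference of 0.15 ± 0.0207 (adjusted p = 0.000867), and young replicate 2 lay only 0.021 above the other young arrays. Irf7, which drives interferon genes and is itself induced by interferon, behaved differently between arrays. It measured 7.27, 7.24, 7.23 and 7.22 in adult arteries and 7.09, 7.37, 7.11 and 7.05 in young arteries, so that young replicate 2 was the highest of all 8 arrays and the other young values were the 3 lowest. The difference of Irf7 was 0.087 ± 0.068 (adjusted p = 0.347) with all arrays and 0.16 ± 0.0181 (adjusted p = 0.000883) without young replicate 2. Stat2 and Irf9, parts of the complex that binds the ISRE, also peaked in that array. Stat2 measured 7.81, 7.88, 7.82 and 7.81 in adult arteries and 7.82, 8.06, 7.83 and 7.82 in young arteries, and Irf9 7.59, 7.61, 7.57 and 7.62 in adult arteries and 7.55, 7.82, 7.49 and 7.49 in young arteries. Neither was called with all arrays (-0.050 ± 0.0577 and 0.0073 ± 0.0712) or without young replicate 2 (0.010 ± 0.0201 and 0.083 ± 0.0199), where the groups of Irf9 no longer overlapped. Irf3, a latent factor activated by the RNA sensors, ranged from 8.56 to 8.67 in adult and from 8.54 to 8.65 in young arteries. Irf1, a factor induced by interferon gamma, ranged from 7.72 to 7.87 and from 7.57 to 7.83, and was one of 3 members, with Ifnar1 and Rsad2, in which young replicate 2 lay below the mean of the other young arrays.

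Of the 3 cytosolic RNA sensors, Dhx58, the regulator LGP2, was called, where 32.7% of all rows were. It measured 7.01, 7.02, 7.03 and 7.02 in adult arteries and 6.95, 6.99, 6.94 and 6.93 in young arteries, with no overlap and a difference of only 0.069 ± 0.0145 (adjusted p = 0.00649); its call was made in 1 of the 8 fits without an array, the one without young replicate 2, and the adjusted p reached 0.0212 in the others. Ddx58, which encodes RIG-I, measured 7.73, 7.59, 7.70 and 7.68 in adult arteries and 7.40, 7.75, 7.49 and 7.44 in young arteries. Young replicate 2 lay above every adult array, and the other 3 young values lay below them all. The difference was 0.15 ± 0.0764 (adjusted p = 0.147) with all arrays and 0.23 ± 0.0376 (adjusted p = 0.00383) without that array. Ifih1, which encodes MDA5, ranged from 7.25 to 7.41 in adult and from 7.14 to 7.37 in young arteries, a difference of 0.078 ± 0.0577 (adjusted p = 0.318).

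The antiviral effectors held 1 called gene of 9 with all arrays (32.7% of all rows) and 4 without young replicate 2 (28%). That array was picked for its high values in the members, so the rise is no separate support for an age difference. Bst2, or tetherin, which holds budding virions at the cell surface, measured 7.47, 7.57, 7.51 and 7.53 in adult arteries and 7.19, 7.30, 7.18 and 7.16 in young arteries. Adult values all exceeded young values, the difference was 0.31 ± 0.0346 or 1.24-fold (adjusted p = 0.000306), and without young replicate 2 it was 0.34 ± 0.0236 (adjusted p = 0.000143). Mx1, a dynamin-like GTPase that traps viral nucleocapsids, measured 6.99, 6.94, 7.12 and 7.03 in adult arteries and 6.87, 7.74, 6.91 and 6.88 in young arteries. In young replicate 2 it was 0.85 above the mean of the other young arrays, a 1.81-fold excess that ranked 6 among the 19239 rows. Its relative Mx2 measured 7.10, 7.14, 7.21 and 7.15 in adult arteries and 6.96, 7.58, 6.97 and 6.92 in young arteries, with an excess of 0.63 that ranked 10. For both genes the highest value came from a young array and the 3 lowest values also came from young arrays. The age difference of Mx1 was -0.076 ± 0.199 (adjusted p = 0.791) with all arrays and 0.14 ± 0.0432 (adjusted p = 0.0438) without young replicate 2, and that of Mx2 was 0.045 ± 0.147 (adjusted p = 0.833) and 0.20 ± 0.0277 (adjusted p = 0.00181).

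Oas1a, an oligoadenylate synthetase of the RNase L pathway, measured 6.97, 7.01, 7.03 and 7.06 in adult arteries and 6.85, 7.07, 6.85 and 6.86 in young arteries. Young replicate 2 lay just above the highest adult value and the other young arrays lay below the lowest, with a difference of 0.11 ± 0.0519 (adjusted p = 0.128) for all arrays and 0.16 ± 0.0204 (adjusted p = 0.00126) without that array. The rat genome holds several close copies of Oas1a, so its row is uncertain in the same way as those of other multigene families. Ifit3, a member of the family of interferon-induced proteins with tetratricopeptide repeats, ranged from 7.17 to 7.23 in adult and from 7.11 to 7.18 in young arteries (0.069 ± 0.0203, adjusted p = 0.0267), and passed the threshold without young replicate 2 (0.085 ± 0.0166, adjusted p = 0.00754). Ifit2 of the same family, Oasl and Rsad2, the gene of viperin, had differences of -0.015 ± 0.0687, 0.017 ± 0.02 and -0.059 ± 0.0268, none of them called and those of Ifit2 and Rsad2 turning sign with ribosomal protein centring. Ifitm3, a membrane protein that hinders viral entry, measured 11.33, 11.10, 11.42 and 10.78 in adult arteries and 11.48, 11.71, 11.45 and 11.68 in young arteries. Its adult values all lay below its young values, but they spread widely and the difference of -0.42 ± 0.144 was not called (adjusted p = 0.0473).

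**Figure D2:**
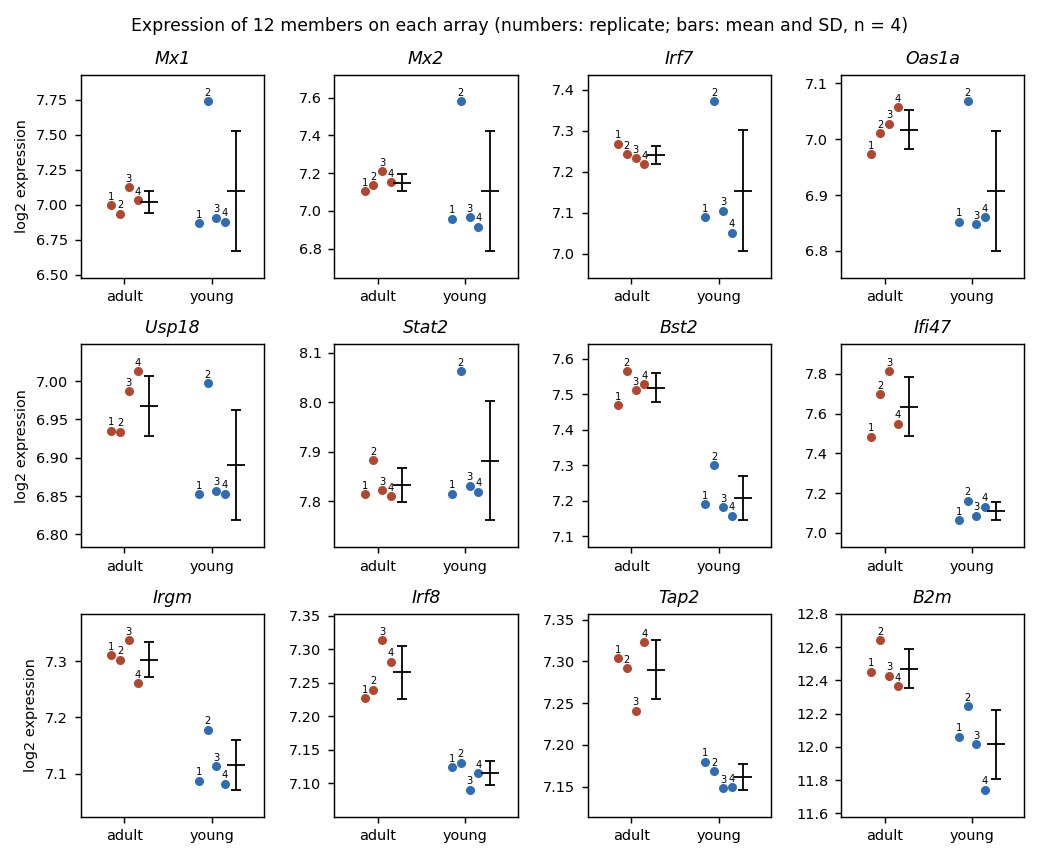
Log2 expression of 12 members on each array, adult in red and young in blue, with the replicate number beside each point and the mean and SD (n = 4) to the right; each panel has its own axis. In the first 6 panels young replicate 2 lies above the other 3 young arrays, at or above the top of the adult values except for Usp18, and in the last 6 panels the ages do not overlap.

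The ISG15 system and other modifiers gave 0 calls among 4 genes in limma (32.7% of all rows) and in the study's own one-way test (28.7%). At an unadjusted p below 0.05 in limma, 1 was higher and 1 lower, beside 5317 and 4720 of the 19239 rows. Isg15, the ubiquitin-like protein conjugated to targets after interferon, measured 7.12, 7.11, 7.14 and 7.10 in adult arteries and 7.05, 7.16, 7.03 and 7.07 in young arteries. The values were close together and near the low end of the table, with a difference of 0.038 ± 0.0278 (adjusted p = 0.31). Usp18, which removes ISG15 and restrains the type I receptor, measured 6.94, 6.93, 6.99 and 7.01 in adult arteries and 6.85, 6.998, 6.86 and 6.85 in young arteries. Young replicate 2 again lay within the adult range while the other young arrays lay below it, and the difference was 0.077 ± 0.0379 (adjusted p = 0.141), and 0.11 ± 0.0222 (adjusted p = 0.00775) without it. Parp14, an ADP-ribosyltransferase, ranged from 7.37 to 7.50 in adult and from 7.22 to 7.38 in young arteries, with differences of 0.14 ± 0.0409 (adjusted p = 0.0239) and, without young replicate 2, 0.17 ± 0.0353 (adjusted p = 0.00899). Trim25, the ubiquitin ligase that acts on RIG-I, had the opposite sign, with 7.54, 7.65, 7.74 and 7.60 in adult arteries and 7.94, 8.06, 7.94 and 7.70 in young arteries. The groups overlapped through young replicate 4, and the difference of -0.28 ± 0.0793 was not called (adjusted p = 0.0247). Among the fits that left out an array, Trim25 was called lower only without young replicate 4. It was also called lower on all arrays with array weights and with an intensity trend.

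The interferon-inducible GTPases were the role with the largest share of calls, 3 of 5, all higher in adult arteries. Over all rows, 16.7% were called higher, and 5 genes are too few to set against that share. Ifi47, Igtp and Irgm are immunity-related GTPases that, in the mouse, act on vacuoles holding parasites and bacteria, and all 3 lie on chromosome 10. Ifi47 measured 7.48, 7.70, 7.81 and 7.55 in adult arteries and 7.06, 7.16, 7.09 and 7.13 in young arteries. No young value reached the lowest adult value, and the difference of 0.52 ± 0.0714 (adjusted p = 0.000819) was 0.54 ± 0.0812 without young replicate 2. Irgm measured 7.31, 7.30, 7.34 and 7.26 in adult arteries and 7.09, 7.18, 7.11 and 7.08 in young arteries, and the ages did not overlap (0.19 ± 0.0256, adjusted p = 0.000816). Igtp measured 7.45, 7.39, 7.45 and 7.32 in adult arteries and 7.17, 7.31, 7.17 and 7.14 in young arteries, again without overlap, though only by a small margin (0.21 ± 0.0442, adjusted p = 0.00667). The call of Igtp was made in 2 of the 8 fits that left out an array, those without adult replicate 4 and young replicate 2, and the adjusted p reached 0.0217 in the others. The guanylate-binding proteins Gbp2 and Gbp5, large GTPases induced by interferon gamma, overlapped between ages. Gbp2 measured 7.65, 7.68, 7.83 and 7.62 in adult arteries and 7.34, 7.68, 7.39 and 7.31 in young arteries, and only young replicate 2 reached the adult range. Its difference was 0.27 ± 0.0894 (adjusted p = 0.0454) with all arrays and 0.35 ± 0.0531 (adjusted p = 0.00282) without that array. Gbp5 differed by 0.20 ± 0.0556 (adjusted p = 0.0216). Among the fits that left out an array it was called only without adult replicate 4, and it was also called on all arrays with an intensity trend.

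**Figure D3:**
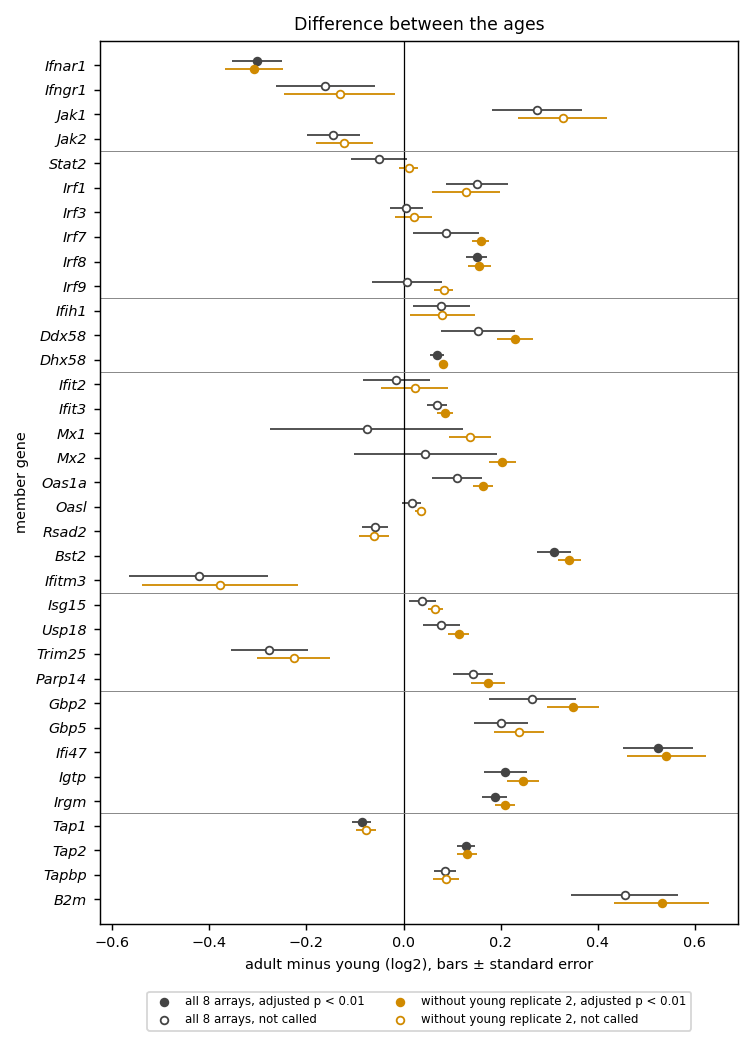
Adult minus young difference (log2, horizontal axis, bars ± standard error) of the 35 members with all 8 arrays (grey) and without young replicate 2 (orange); filled points have an adjusted p below 0.01. The 9 members gained without that array carry orange filled points beside open grey ones, and Tap1 is the reverse.

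In the MHC class I pathway the ages did not overlap in any of the 4 measured members, and 2 of them were called. Over all rows, 46% did not overlap and 32.7% were called, and 4 genes are too few to set against those shares. B2m, the light chain of every class I molecule, measured 12.45, 12.64, 12.43 and 12.36 in adult arteries and 12.06, 12.24, 12.02 and 11.74 in young arteries. Every adult value exceeded every young value but the young arrays spread from 11.74 to 12.24, and the difference of 0.46 ± 0.109 or 1.37-fold narrowly missed the threshold (adjusted p = 0.0118). Without young replicate 2 it was 0.53 ± 0.0984 (adjusted p = 0.00628). With all arrays kept, B2m was called higher under array weights, an intensity trend, ribosomal protein centring and a block for replicate number or sample code. The same held after subtraction of the lowest intensity and removal of the dimmest 25% of rows, but not in the study's one-way test. Tap1 and Tap2 form the transporter that carries peptides into the endoplasmic reticulum, and lay in opposite directions. Tap1 measured 7.35, 7.30, 7.30 and 7.26 in adult arteries and 7.38, 7.41, 7.38 and 7.37 in young arteries, and Tap2 7.30, 7.29, 7.24 and 7.32 in adult arteries and 7.18, 7.17, 7.15 and 7.15 in young arteries. The differences were -0.086 ± 0.0192 for Tap1 (adjusted p = 0.00851) and 0.13 ± 0.0186 for Tap2 (adjusted p = 0.00112), and the call of Tap1 was made only without adult replicate 1 among the 8 fits that left out an array, with an adjusted p of up to 0.0245 in the others. Tapbp, or tapasin, which bridges the transporter and the class I molecule, ranged from 7.52 to 7.60 in adult and from 7.44 to 7.51 in young arteries (0.085 ± 0.0224, adjusted p = 0.017).

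The heavy chains and loading factors outside the members were read for comparison, with 7 of 35 measured genes higher and 4 lower. That is 31.4% called, near the 32.7% of all rows. The activator subunit Psme1 of the proteasome (0.44 ± 0.0943, adjusted p = 0.0071), the immunoproteasome subunit Psmb9 (0.33 ± 0.0502, adjusted p = 0.00145) and the class I heavy chain RT1-CE7 (0.32 ± 0.0225, adjusted p = 3.53e-05) had the largest differences among the higher genes. The call of Psme1 was made in 1 of the 8 fits without an array, and its adjusted p reached 0.0206. Fcgrt, a class I-like receptor that carries immunoglobulin and albumin, was lower in adult arteries (-0.53 ± 0.079, adjusted p = 0.00124), as was the lipid-presenting Cd1d1 (-0.19 ± 0.0283, adjusted p = 0.00127). The classical heavy chain rows RT1-A1, RT1-A2 and RT1-A3 were not called and their differences had both signs (-0.29 ± 0.155, 0.38 ± 0.0966 and -0.28 ± 0.115). Rat class I genes are near-identical copies that can share probe sequence, so values of single RT1 class I rows are uncertain. MHC class II presentation, the partner pathway, had 6 of 16 genes higher and 1 lower, 43.8% called against 32.7% of all rows. Its median difference was 0.13 against 0.11 for the 4 class I members. Its invariant chain Cd74 measured 9.64, 11.10, 11.11 and 11.03 in adult arteries and 7.80, 7.99, 7.68 and 7.98 in young arteries and differed by 2.86 ± 0.338 (adjusted p = 0.000409), more than any member, with adult replicate 1 well below the other adult arrays.

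**Figure D4:**
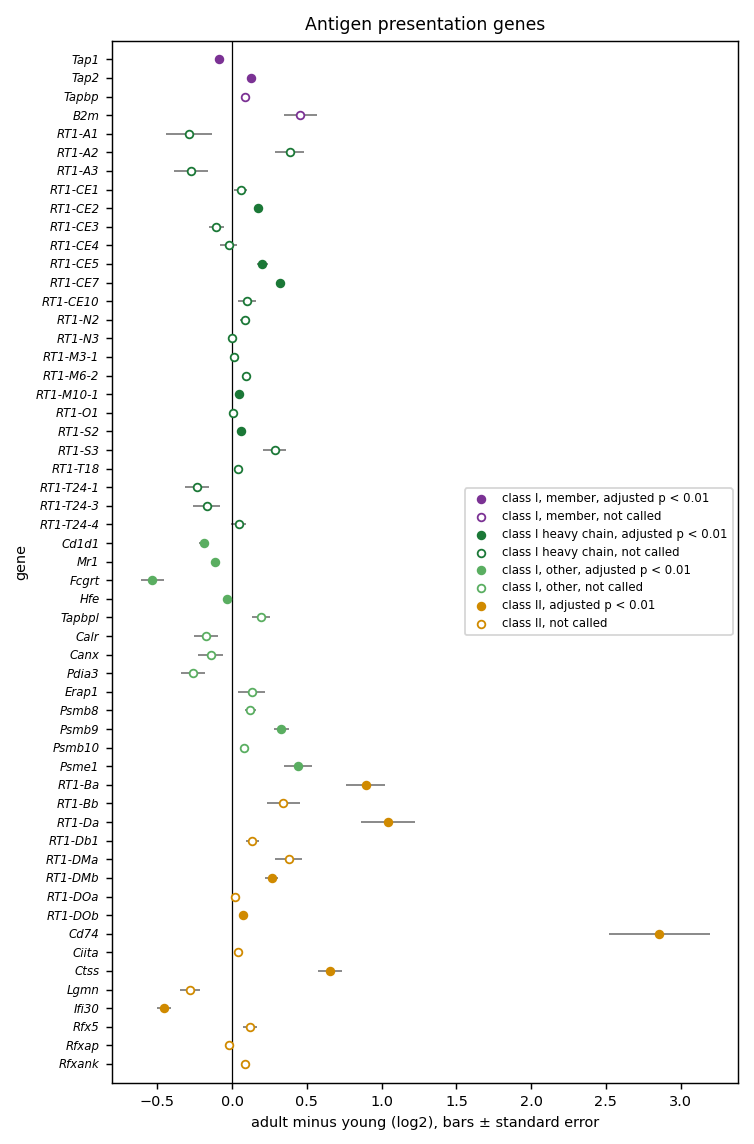
Adult minus young difference (log2, bars ± standard error, n = 4 per age) of the genes of antigen presentation: class I members (purple), class I heavy chains (dark green), other class I genes (light green) and class II genes (orange), filled where the adjusted p was below 0.01. Class I genes lie between −0.53 (Fcgrt) and 0.46 (B2m), while Cd74 reaches 2.86.

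The rest of the interferon pathway was taken from 5 lists of other genes, the class I heavy chains among them, of which 107 were measured. Of these, 21 were higher and 8 lower in adult arteries, 27.1% against the 32.7% of all rows. Without young replicate 2, picked for its high values in the members, 25 were higher and 7 lower, 29.9% against 28% of all rows. The 4 measured interferon ligands Ifna4, Ifnb1, Ifnk and Ifng gave 0 calls in limma, 0 at an unadjusted p below 0.05 and 0 in the study's one-way test, with all values between 6.85 and 7.14 in the low range of the table. Receptors, signalling proteins and brakes gave 6 higher and 2 lower of 13. Pias1, an inhibitor of STAT signalling, was higher (0.39 ± 0.058), as were the RNA-editing enzyme Adar (0.37 ± 0.0387) and the repressor Irf2 (0.29 ± 0.0441), while the feedback inhibitor Socs1 (-0.30 ± 0.0333) and the receptor chain Ifngr2 (-0.34 ± 0.0501) were lower, with Ifngr2 at 7.88 to 8.10 in adult and 8.27 to 8.35 in young arteries. Among nucleic acid sensing genes 3 of 9 were higher and 1 lower, led by the endosomal RNA receptor Tlr3 (1.07 ± 0.0841, adjusted p = 5.94e-05), and the kinase Ikbke was the lower one (-0.27 ± 0.0313). Other interferon-induced genes gave 5 higher and 1 lower of 46, 13% against 32.7% of all rows. Without young replicate 2 they gave 11 and 1, 26.1% against 28% of all rows. The exonuclease Isg20 stood out with 9.43, 9.55, 9.43 and 9.39 in adult arteries and 7.45, 7.72, 7.62 and 7.90 in young arteries, a difference of 1.78 ± 0.0926 (adjusted p = 1.06e-05), followed by Trim5 (0.37 ± 0.0702), whose call was made in 3 of the 8 fits without an array with an adjusted p of up to 0.0144, and the helicase Mov10 was lower (-0.19 ± 0.0115).

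The excess of young replicate 2 extended to these other genes in part. That array was the highest young array in 49 of the 107 genes (45.8%) and in 29 of the 46 other interferon-induced genes (63%), against 25.3% of all rows, and in 0 of the 4 ligands. Lgals9, a galectin chosen after its values were seen, measured 7.32, 7.38, 7.38 and 7.32 in adult arteries and 7.54, 8.06, 7.48 and 7.43 in young arteries. Its young replicate 2 value lay above all 7 others, as for Mx1. In the adult group the members were less uneven. Adult replicate 3 was the highest adult array in 18 of the 35 members (51.4%, against 22.6% of all rows), and adult replicate 4 was the lowest in 16 (45.7%, against 24.8%). Young replicate 4 was the lowest young array in 19 members (54.3%, against 31.2% of all rows). When the 27 ribosomal protein rows were used to centre the arrays, young replicate 2 was the highest young array in 15 of 35 members (42.9%) and in 4.54% of all rows, and the median of all rows in it shifted by −0.066 against the other young arrays. With one array of 4 standing out, no test of this excess was made.

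**Figure D5:**
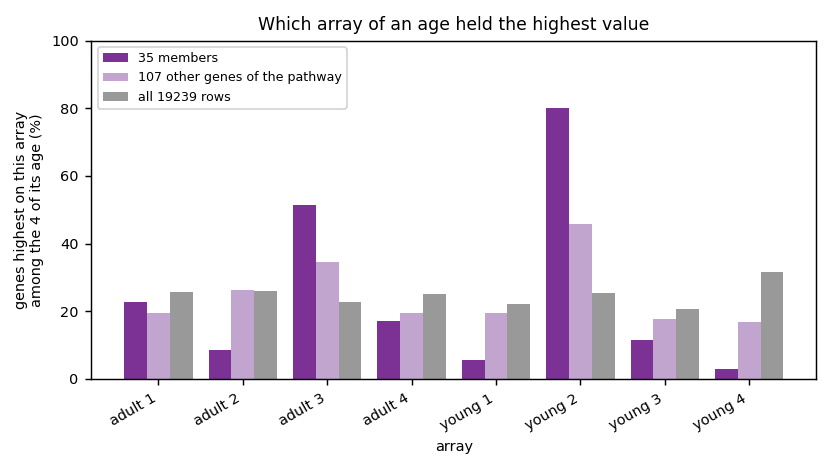
Share of genes (percent, vertical axis) whose highest value within an age fell on each array, for the 35 members, the 107 other genes of the pathway and all 19239 rows. Young replicate 2 holds 80% of the members and 25.3% of all rows, and adult replicate 3 holds 51.4% and 22.6%.

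Markers of the cells in the samples were read beside these values. Of all rows, 16.7% were called higher and 16% lower, and each marker list is short. The 5 smooth muscle markers averaged 12.83 to 12.95 in adult and 12.18 to 12.29 in young arteries and all 5 were higher in adult arteries. General leukocyte markers were higher in adult arteries in 5 of 5 genes (mean 7.63 to 7.74 against 7.20 to 7.33; Ptprc, the gene of CD45, 0.32 ± 0.0197), and macrophage markers in 7 of 9, with 1 lower. Of the T and NK lymphocyte markers 2 of 10 were higher, Cd4 and Nkg7, which is near the share of all rows. Cd3e, which defines T cells, ranged from 7.20 to 7.25 in adult and from 7.19 to 7.44 in young arteries and was not called. Endothelial markers averaged 8.22 to 8.73 in adult and 9.35 to 9.98 in young arteries and 2 of 5 were lower. Markers of lymphatic endothelium were lower in 5 of 5 genes (mean 7.18 to 7.48 against 8.30 to 8.81), mast cell markers in 3 of 6 (6.97 to 7.01 against 7.25 to 7.42), and fibroblast markers in 4 of 6 with 1 higher (10.87 to 11.02 against 11.26 to 11.34). In such whole-artery samples fewer cells of a type and less RNA per cell cannot be told apart, and the part of these shifts in the differences of the members was not tested. In young replicate 2, the mean of the leukocyte markers was 7.25, within the 7.20 to 7.33 of the other young arrays, and that of the T and NK markers was 7.11, where the others lay from 7.11 to 7.12. Its macrophage markers averaged 7.67 against 7.53 to 7.65, its mast cell markers 7.42 against 7.25 to 7.35, its lymphatic endothelial markers 8.81 against 8.30 to 8.77, and its adipocyte markers 7.49 against 7.16 to 7.20, with Adipoq at 8.12 against 7.18 to 7.28. Its skeletal muscle markers averaged 8.08 against 8.45 to 8.74. Lyve1 stands in both the macrophage and the lymphatic list and measured 9.48, 9.60, 9.06 and 9.30 in young arteries, so the 2 means are not independent. Young replicate 2 was the highest young array in 4 of the 9 macrophage markers, Lyve1 among them. The part of these marker values in the excess of the members in that array was not tested.

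The signal above background limited the low members. Dhx58, Ifit3, Oas1a, Oasl, Rsad2, Isg15 and Usp18 lay below the table's median of 7.29 on all arrays, and the table ends at a lowest linear intensity of 111, which means that folds of dim genes are compressed. After subtraction of that lowest intensity the fold of Ifi47 was 2.4 instead of 1.44 and that of Bst2 was 1.68 instead of 1.24.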

How the data were processed

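Values are log2 expression, deposited as a table of 19239 rows, 1 per Entrez gene, over 8 arrays. Per the submitters' processing notes and the methods, the authors used RMA (version not given), quantile normalization and a custom chip definition file (version 14) with Entrez gene definitions; how background was corrected is not stated in those sources. The columns share the same sorted values, median 7.29, lowest 6.80, highest 13.82, so that an overall shift between arrays cannot be seen. All columns were mapped to samples. Rows were named from the platform annotation and set against current RefSeq symbols by Entrez identifier: 16592 rows had 1 listed symbol, 0 had several and 2647 were unlisted and stay unnamed. For 26 rows the listed and current symbols differ.

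Groups were taken from the labels. The ages were compared by lmFit and eBayes of limma 3.58.1 under R 4.3.3, two-sided and without covariate or minimum fold, with Benjamini-Hochberg adjustment over all rows and a threshold of 0.01, a fit checked on simulated arrays; the study's one-way ANOVA is an alternative. The members and lists were chosen with earlier results of these data known. All members may be named, and of the other lists every called gene; genes outside this rule are named as such or as the defining genes of a cell type or gene family. The samples came from separate animals, pooled in pairs for the young, replicate numbers do not pair animals, and the number of arrays limits the precision. Alternatives were array weights, an intensity trend, removal of the dimmest 25% of rows, ribosomal protein centring, subtraction of the lowest intensity (offset 16), a second quantile normalization, rows matching a current gene, blocks for replicate number and sample code, codes below or above 20 only, an adjusted p below 0.05, a fold of 1.5, and each array left out. Promoter sequences are from RefSeq (GRCr8), used for sequence and position only.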

Additional observations from a re-analysis of the deposited data

Results flagged for a closer look

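In 10 of the 70 sets of 4 values (35 members at 2 ages), 1 array stood far from the other 3 of its age, by a gap beyond the critical value of Dixon's test. Chance flags about 1 in 20 such sets. Young replicate 2 was the high array in 6 of the 10. Its values were 7.74 for Mx1, 7.58 for Mx2, 8.06 for Stat2, 7.37 for Irf7, 7.07 for Oas1a and 6.998 for Usp18. Over all rows, 0.759% had a high value of this kind in young replicate 2, and 1.48% in young replicate 4. The other 4 were spread over 3 arrays. Adult replicate 1 was high for Ifnar1 (8.75) and Rsad2 (7.04), adult replicate 2 was high for Stat2 (7.88), and young replicate 4 was low for Ifngr1 (10.09).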

How the results depend on the processing

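A second quantile normalization changed no value, since the columns already share their distribution; over the other alternatives, 552 of 661 values of single members kept their direction and their side of the threshold. Percentages in parentheses are the share of all rows called in the same fit. The count of higher members (7) was 5 to 16 with each array left out, 14 at an adjusted p below 0.05 (45.5%), 0 with a fold of at least 1.5 (7.42%), 1, Tap2, with sample codes below 20 only (18.5%), and 0 with codes above 20 only (0%). That last fit set 2 adult arrays against 1 young array, young replicate 4, assumed to vary like the adult ones. Young replicate 4 was the lowest young array in 19 members (54.3%, against 31.2% of all rows). A fit with 1 young array holds no spread between young arrays, so its counts are not read as an age difference. The count of lower members (2) was 1 to 3 with each array left out, 4 at an adjusted p below 0.05, and 0 with codes above 20 only and with a fold of 1.5. It was 1, Ifnar1, without the dimmest 25% of rows (42%), with the sample code as a block (29.8%) and in the ANOVA (28.7%), which also lost higher calls, Dhx58 in each and Igtp in the ANOVA. With ribosomal protein centring (20.5%) 5 members were higher and 1, Ifitm3, lower, and 2 of the 9 calls remained; with codes below 20 only the 2 lower members were Ifngr1 and Jak2 and 1 of the 9 calls remained. The other pathway genes gave 12 higher and 2 lower with ribosomal protein centring, 10 and 5 with codes below 20 only and 0 and 0 with codes above 20 only; each array left out gave 17 to 25 and 7 to 9. Ribosomal protein centring moved the median difference of all rows from 0.0024 to 0.068, and the members highest in young replicate 2 from 28 to 15 (4.54% of all rows). This centring shifts every row of an array alike. The cause of the changed calls was not tested.

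With the replicate number as a block, 6 members were higher and 0 lower, while 22.9% of all rows were called. At an unadjusted p below 0.05 there were 14 and 5, 54.3% against 49.2% of all rows. The calls of Bst2, Ifi47, Irgm and Tap2 remained, those of Ifnar1, Irf8, Dhx58, Igtp and Tap1 were lost, and Tapbp and B2m were gained. The other pathway genes gave 16 higher and 6 lower. The numbers only name the samples, and the deviations of same-numbered arrays correlated by −0.08, −0.03, 0.04 and 0.01.

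The sign turned in members with small differences. With ribosomal protein centring, which moved every difference up alike, Stat2 was 0.016, Ifit2 0.052 and Rsad2 0.0075. With codes above 20 only Ifngr1 was 0.0063, Jak2 0.040 and Mx1 0.20, and with codes below 20 only Irf3 was -0.0034, Irf9 -0.021, Ifit2 0.040 and Mx2 -0.049. With each array left out in turn, Stat2 ranged from -0.072 to 0.010, Irf3 from -0.016 to 0.024, Irf9 from -0.024 to 0.083, Ifit2 from -0.072 to 0.023, Mx1 from -0.15 to 0.14 and Mx2 from -0.018 to 0.20; the sign of Stat2 and Mx1 turned without young replicate 2 alone.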
